A study of Mus musculus with 3 samples.

Results

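Translation factor genes were defined by symbol, as every gene named beside a peak in either list whose symbol begins with Eif or Eef followed by a digit, or with Gspt, or is Etf1. The rule took 66 of the 16428 genes named in the lists, 65 of them in the Smad3 list and 62 in the JMJD3 list. It reads symbols alone, so it also took the eIF2 kinases, the eIF4E-binding proteins, Eef2k and 4 Argonaute genes that the files carry under the older names Eif2c1 to Eif2c4. The factors themselves came to 51 of the 66. Peaks came from chromatin immunoprecipitation followed by sequencing of endogenous Smad3 (1 library) and JMJD3 (1 library) in neural stem cells of the cerebral cortex from wild-type mouse embryos (E12.5). All cells were grown with EGF (20 ng/ml) and FGF (10 ng/ml) and received TGFb (5 ng/ml), for 30 min in both immunoprecipitations. The labels also name an input library, whose peaks were not analysed here. No library came from cells without TGFb, so nothing below measures a response to TGFb. Each antibody has 1 library, which leaves no replicate spread, and no difference was tested.

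Translation factors load the ribosome onto an mRNA, choose the start codon, deliver tRNAs, move the ribosome along and release the finished chain. Most are made in every dividing cell, and their activity is set largely after synthesis, through phosphorylation by the stress kinases that act on eIF2 and through mTORC1, which frees eIF4E from its binding proteins. Smad3 enters the nucleus after TGFb receptor activation, and JMJD3 (encoded by Kdm6b) removes methyl groups from H3K27.

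A promoter peak was a peak whose midpoint lay within 1000 bp of the transcription start site (TSS) that it names as closest. Smad3 had a promoter peak at 62 of the 66 genes (93.9%, exact 95% interval 85.2 to 98.3), beside 73.1% of all genes named in the lists. JMJD3 had one at 54 (81.8%, 70.4 to 90.2), beside 57.1% of all genes. Both had one at 53 (80.3%, 68.7 to 89.1), beside 55.1%, and neither at 3 (4.55%, 0.947 to 12.7), beside 25.0%. Smad3 alone was found at 9 genes (13.6%, 6.43 to 24.3), beside 17.9% of all genes, and JMJD3 alone at 1 (1.52%, 0.0384 to 8.16), beside 1.95%. Among the 15423 protein-coding genes in the lists the shares were 74.7% for Smad3, 58.9% for JMJD3, 56.9% for both, 17.8% for Smad3 alone, 1.95% for JMJD3 alone and 23.3% for neither. Of the Smad3-bound translation factor genes, 85.5% (74.2 to 93.1) also had JMJD3, against 75.4% (74.7 to 76.2) of all Smad3-bound genes. The intervals cover counting error only.

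The promoters shown here are those the results turn on: the widest Smad3 region of the class (Eif4a1), the widest JMJD3 region (Eef2), 3 genes with Smad3 alone (Eif2s2, Eif3l and Eif2s3x) and the 1 gene with JMJD3 alone (Eif2s3y). Each run is the 250 bases before the RefSeq start on GRCm38.p6, read 5′ to 3′ on the gene's strand. Capitals mark every match to the motifs described further on. The peaks are on mm9, and no position was carried from one build to the other.
Eif4a1 (chr11:69672424-69672673, minus strand): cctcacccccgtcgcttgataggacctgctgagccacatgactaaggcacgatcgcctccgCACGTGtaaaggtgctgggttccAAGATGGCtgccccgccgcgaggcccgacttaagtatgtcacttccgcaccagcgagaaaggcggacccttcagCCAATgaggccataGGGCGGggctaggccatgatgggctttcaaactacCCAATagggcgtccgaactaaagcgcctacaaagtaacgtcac
Eef2 (chr10:81176381-81176630, plus strand): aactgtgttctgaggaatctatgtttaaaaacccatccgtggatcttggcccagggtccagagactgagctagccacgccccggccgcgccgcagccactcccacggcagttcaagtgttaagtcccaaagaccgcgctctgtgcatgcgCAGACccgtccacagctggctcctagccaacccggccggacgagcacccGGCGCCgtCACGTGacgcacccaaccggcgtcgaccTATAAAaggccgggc
Eif2s2 (chr2:154892907-154893156, minus strand): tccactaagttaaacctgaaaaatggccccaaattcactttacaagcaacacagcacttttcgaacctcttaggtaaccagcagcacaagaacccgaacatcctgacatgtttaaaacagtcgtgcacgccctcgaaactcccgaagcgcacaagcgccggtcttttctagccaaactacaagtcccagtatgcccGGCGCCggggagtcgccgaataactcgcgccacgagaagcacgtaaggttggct
Eif3l (chr15:79074973-79075222, plus strand): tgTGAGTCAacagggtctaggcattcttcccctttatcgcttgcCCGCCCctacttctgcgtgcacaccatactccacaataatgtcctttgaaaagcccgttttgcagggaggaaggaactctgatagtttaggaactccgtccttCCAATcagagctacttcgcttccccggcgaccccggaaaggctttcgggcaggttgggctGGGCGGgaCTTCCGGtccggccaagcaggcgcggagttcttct
Eif2s3x (chrX:94212652-94212901, minus strand): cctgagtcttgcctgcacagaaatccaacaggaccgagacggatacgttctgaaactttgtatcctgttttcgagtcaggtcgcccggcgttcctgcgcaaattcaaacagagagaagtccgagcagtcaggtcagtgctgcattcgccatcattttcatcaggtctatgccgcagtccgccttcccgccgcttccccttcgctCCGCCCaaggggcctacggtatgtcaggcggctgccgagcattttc
Eif2s3y (chrY:1010345-1010594, plus strand): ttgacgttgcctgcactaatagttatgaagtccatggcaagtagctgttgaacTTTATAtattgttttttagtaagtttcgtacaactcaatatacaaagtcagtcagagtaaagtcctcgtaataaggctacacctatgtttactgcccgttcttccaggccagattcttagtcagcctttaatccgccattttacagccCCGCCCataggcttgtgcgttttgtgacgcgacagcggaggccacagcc

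The lists hold no peak heights or enrichment values and no reads, which leaves the depth unknown, and each promoter is described by the width of its region. A region joins peaks of the same list at most 10 bp apart, and where a gene had several promoter regions the widest was taken, so a gene may hold further peaks of the same factor beside the region given. Across the 62 Smad3-bound translation factor genes the Smad3 region had a median width of 830 bp (quartiles 622.5 and 1250 bp, range 350 to 1920 bp), against 760 bp (541 and 1020 bp) over all Smad3-bound genes. Across the 54 JMJD3-bound genes the JMJD3 region had a median of 965 bp (765.25 and 1237.5 bp, range 350 to 2330 bp), against 860 bp (661 and 1120 bp) over all JMJD3-bound genes. Both medians lay above those of all bound genes, and both ranges overlap them broadly.

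**Figure D1:**
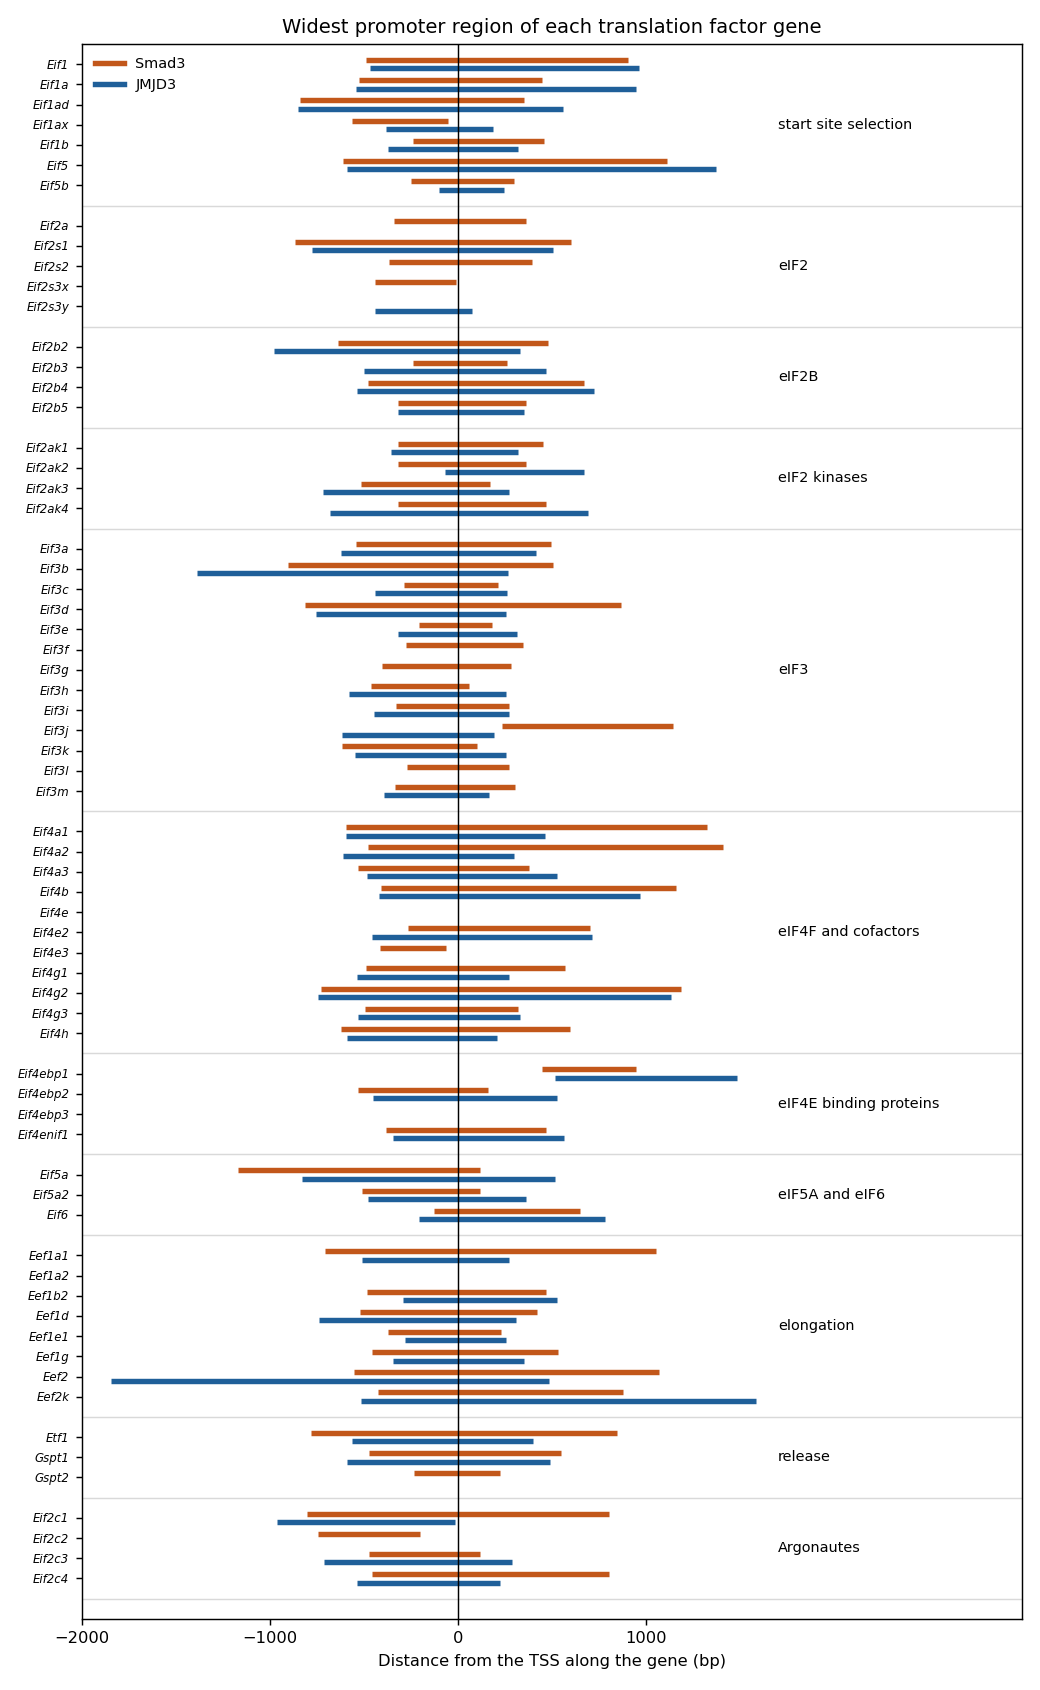
Extent of the widest Smad3 (orange) and JMJD3 (blue) promoter region of each translation factor gene, drawn in bp from the TSS in the direction of transcription, with genes grouped by role. Most regions lie across the TSS, the Smad3 region at 56 of 62 genes and the JMJD3 region at 52 of 54. Rows with a single colour are the genes that 1 factor alone marked by name. At Eif5a the widest regions name transcripts with different starts, and each is drawn from its own. Eif2a is drawn in the eIF2 block, without the JMJD3 region at its TSS that is credited to Serp1.

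The genes of start codon selection carried both peaks throughout, with JMJD3 regions from 350 to 1960 bp. Eif1b, Eif1ax and Eif5b lay under the class median of 965 bp for JMJD3. All 7 genes had Smad3 (median 970 bp) and JMJD3 (median 1410 bp). The exact interval for 7 of 7 is 59.0 to 100%, beside 73.1% of all genes for Smad3 and 57.1% for JMJD3. Each role below also holds few genes, and its counts stand beside the same shares of all genes. Eif5, which encodes the protein that triggers GTP hydrolysis by eIF2 at the start codon, had the widest pair, 1720 bp of Smad3 and 1960 bp of JMJD3. These stood at percentiles 96.0 and 97.6 of all genes bound by each factor. Eif1, whose product guards the choice of start codon, had 1390 bp of Smad3 and 1430 bp of JMJD3, and its paralog Eif1b had 700 and 690 bp. Eif1ad had regions of 1191 bp of Smad3 and 1410 bp of JMJD3, and both hold peaks that name its neighbour Banf1. Its JMJD3 width is the median of the 7, although Eif1ad is not counted among the factors themselves. Eif1a had 970 bp of Smad3, in a region that also holds a peak naming Tmed7, and 1490 bp of JMJD3. The narrow end was Eif1ax on chromosome X, with 511 bp of Smad3 and 570 bp of JMJD3, and Eif5b, which joins the ribosomal subunits, with 551 and 350 bp.

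The subunit genes of eIF2, the factor that carries the initiator tRNA, were split. Of the 4 genes, 3 had Smad3, 2 had JMJD3 and 1 had both, beside 73.1%, 57.1% and 55.1% of all genes. The gene with both was Eif2s1, the alpha subunit and the target of the stress kinases, with 1470 bp of Smad3 (chr12:79962191-79963660 on mm9, as for all peak positions) and 1280 bp of JMJD3 (chr12:79962281-79963560). Both regions also hold peaks that name Atp6v1d, its neighbour. The promoter peaks that name Eif2s1 sum to 792 bp of Smad3 and 390 bp of JMJD3. Eif2s2, the beta subunit (Entrez 67204), had 760 bp of Smad3 (chr2:154718251-154719010), and no JMJD3 peak anywhere names it. The nearest JMJD3 peak of any gene lay 100901 bp from its TSS and named Raly.

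The gamma subunit of eIF2 is encoded on both sex chromosomes in mice, and its copies showed opposite patterns. Eif2s3x (Entrez 26905) had a Smad3 region of 431 bp (chrX:91458001-91458431) that ended 11 bp upstream of the TSS, and its nearest JMJD3 peak of any gene lay 22276 bp away. Eif2s3y (Entrez 26908) had a JMJD3 region of 520 bp (chrY:346611-347130), and the nearest Smad3 peak lay 235266 bp from its TSS and named Uty. Both are narrow regions, at percentile 14.0 for Smad3 and 9.73 for JMJD3. Chromosome Y held 5 Smad3 and 7 JMJD3 peaks in all, against 1732 and 1247 on chromosome X, so the Y copy was read against very few peaks. The printed promoters of the X and Y copies differ in sequence. The treatment of reads that map to several places is not given in the sources used here, and its part in this pattern was not tested.

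Eif2a encodes a separate initiator tRNA-binding factor, not a subunit of eIF2. By name it had a Smad3 region of 701 bp and no JMJD3 promoter peak, since the nearest JMJD3 peak that names it lay 51260 bp upstream. By coordinates, however, a JMJD3 peak was centred 34 bp from its TSS, in a region of 1050 bp (chr3:58329251-58330300) credited to Serp1. It was the 1 gene of the 9 with Smad3 alone that had any JMJD3 peak within 1000 bp once the names were set aside.

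The exchange factor eIF2B and the eIF2 kinases, which set how much eIF2 is ready for use, had both peaks throughout. All 4 eIF2B genes in the lists did, and the median widths were 900 bp (Smad3) and 1115 bp (JMJD3), and Eif2b1 is named by no peak. Eif2b4 was widest for Smad3 by region, with 1150 bp of Smad3 and 1260 bp of JMJD3 in regions that also hold peaks naming Snx17. The promoter peaks that name Eif2b4 sum to 511 bp of Smad3 and 561 bp of JMJD3, and by such sums Eif2b2 was wider. Eif2b3 had 501 bp of Smad3 and 970 bp of JMJD3, and a second Smad3 promoter peak of 300 bp (chr4:116692361-116692660) ran past the downstream end of the JMJD3 region. Eif2b2 had 1120 and 1310 bp, and Eif2b5, the catalytic subunit, had 680 and 670 bp. All 4 kinase genes had both, with medians of 730.5 bp (Smad3) and 865 bp (JMJD3). The widest was Eif2ak4, the amino acid sensor GCN2, with 791 bp of Smad3 and 1370 bp of JMJD3. Eif2ak2, the double-stranded RNA sensor PKR, was narrowest for Smad3 with 680 bp, against 740 bp of JMJD3. Eif2ak1 (HRI) had 770 and 680 bp, and Eif2ak3 (PERK) had 691 and 990 bp. For each of these sets of 4 genes the exact interval is 39.8 to 100%, beside 55.1% of all genes with both peaks.

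The eIF3 genes, whose products form the scaffold of the initiating small subunit, all had Smad3 promoter peaks, and 10 of 13 had JMJD3. Most of their regions were narrow, with medians of 640 bp (Smad3) and 805.5 bp (JMJD3). Eif3d, Eif3b and Eif3a lay above the class medians for both factors. Eif3d, which can itself bind the cap of some mRNAs, had 1680 bp of Smad3, against 1010 bp of JMJD3, and Eif3b had 1411 bp of Smad3, against 1651 bp of JMJD3. Eif3e had the least Smad3 of those with both, 391 bp, against 631 bp of JMJD3. Eif3a had 1041 bp of Smad3 and 1040 bp of JMJD3. Among the others with both, Eif3c had 500 and 700 bp, Eif3h 521 and 840 bp, Eif3i 601 and 720 bp, Eif3k 720 and 800 bp, and Eif3m 640 and 560 bp. Both regions of Eif3i also hold peaks that name 2510006D16Rik. Eif3f, Eif3g and Eif3l had Smad3 alone. The Smad3 region of Eif3f was 620 bp wide (chr7:116077651-116078270), that of Eif3g 690 bp (chr9:20702751-20703440) and that of Eif3l 541 bp (chr15:78905381-78905921). All 3 regions lay across the TSS, and a Smad3 peak of Eif3l was centred on the TSS itself. The nearest JMJD3 peak to Eif3g lay 2991 bp upstream, while that of Eif3f was 37909 bp away. No JMJD3 peak names Eif3l, and the nearest of any gene lay 12352 bp off and named Ankrd54.

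The cap-binding group held the widest Smad3 regions of the class. Of 11 genes, 10 had Smad3 (90.9%) and 9 had JMJD3 (81.8%), beside 73.1% and 57.1% of all genes. The median widths were 1140.5 and 1011 bp. Eif4a1, the main RNA helicase of cap-dependent initiation (Entrez 13681), had 1920 bp of Smad3 (chr11:69484601-69486520), against 1060 bp of JMJD3 (chr11:69485461-69486520). Both regions began 595 bp upstream, and the Smad3 region reached 1324 bp into the gene, while the JMJD3 region reached 464 bp. A separate JMJD3 peak of 621 bp (chr11:69484561-69485181), centred 1054 bp downstream and so outside the promoter window, lay over most of the remaining Smad3 stretch. Its paralog Eif4a2 had 1890 bp of Smad3 reaching 1409 bp downstream, against 910 bp of JMJD3 reaching 299 bp. Of the 7 peaks in that Smad3 region, 3 name Snord2, a small nucleolar RNA gene, and the 4 that name Eif4a2 reached 780 bp downstream.

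Eif4g2, a scaffold related to eIF4G that supports cap-independent initiation, was wide for both, with 1911 bp of Smad3 and 1881 bp of JMJD3. Eif4b, which stimulates the helicase, had 1570 and 1390 bp, and its fellow cofactor Eif4h had 1220 and 800 bp. Eif4g1, the main scaffold, had 1061 bp of Smad3 and 811 bp of JMJD3, and Eif4g3 had 810 and 860 bp. Eif4e2, a cap-binding protein linked to repression, had 970 and 1170 bp, and Eif4a3, the helicase of the exon junction complex, had 910 and 1011 bp. Eif4e3 had the narrowest Smad3 region of all 62, at 350 bp (chr6:99616831-99617180), and no JMJD3 promoter peak. Its nearest JMJD3 peak lay 2955 bp upstream.

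Eif4e encodes the main cap-binding protein and is listed with no promoter peak of either factor. Its nearest named peaks lay 10232 bp (Smad3) and 10157 bp (JMJD3) upstream. By coordinates it had both, centred 777 and 817 bp downstream of its TSS, in regions of 720 bp of Smad3 (chr3:138189791-138190510) and 721 bp of JMJD3 (chr3:138189611-138190331) that the files credit to the microRNA gene Mir1956. Eif4e thus had neither peak by name and both by coordinates.

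The eIF4E-binding proteins, which hold back cap-dependent initiation, were divided by gene. Eif4ebp2 had 690 bp of Smad3 and 980 bp of JMJD3, and Eif4enif1, which carries eIF4E into the nucleus, had 850 and 910 bp. Eif4ebp1 had 501 bp of Smad3 and 970 bp of JMJD3, and both of these regions lay wholly downstream of the TSS, starting 443 and 513 bp into the gene, although another JMJD3 peak was centred 91 bp upstream. Eif4ebp3 had neither, with its nearest peaks 1884 bp (Smad3) and 1964 bp (JMJD3) downstream. The last of the initiation genes all had both peaks. Eif5a had 1291 bp of Smad3 and 1350 bp of JMJD3, its paralog Eif5a2 630 and 840 bp, and Eif6, which keeps the large ribosomal subunit from joining too early, 781 and 990 bp.

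Among elongation genes 7 of 8 had both peaks (87.5%, 47.3 to 99.7), beside 55.1% of all genes. The median widths were 990 bp (Smad3) and 820 bp (JMJD3). Eef2, the translocase that moves the ribosome along the mRNA (Entrez 13629), had the widest JMJD3 region of the class, 2330 bp (chr10:80637531-80639860), with 1620 bp of Smad3 (chr10:80638821-80640440). The JMJD3 region reached 1844 bp upstream and 485 bp downstream of the TSS, and the Smad3 region reached 554 bp upstream and 1065 bp downstream. A separate Smad3 region of 501 bp (chr10:80637831-80638331) lay within the upstream arm of the JMJD3 region. Counting only peaks centred within 1000 bp, the summed widths were 1602 bp of Smad3 and 1261 bp of JMJD3. Eef2k, the kinase that switches eEF2 off, came next for JMJD3 with 2100 bp, against 1301 bp of Smad3. These JMJD3 widths stood at percentiles 99.1 and 98.3 of all JMJD3-bound genes.

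Eef1a1, which delivers aminoacyl-tRNAs, had 1761 bp of Smad3 and 781 bp of JMJD3. A second JMJD3 promoter region of 590 bp (chr9:78328511-78329100) lay inside the Smad3 region, and the summed promoter peaks came to 1743 bp of Smad3 and 1362 bp of JMJD3. Its exchange factors were closer to even by widest region, since Eef1b2 had 951 and 820 bp, Eef1d 941 and 1050 bp, and Eef1g 990 and 700 bp. The Smad3 region of Eef1b2 also holds peaks that name Ndufs1, and the Smad3 promoter peak that names Eef1b2 is 391 bp wide. The JMJD3 region of Eef1d also holds peaks that name Tigd5, and the JMJD3 promoter peaks that name Eef1d sum to 622 bp. By the peaks that name them, these 2 genes were thus less even. Eef1e1, a member of the tRNA synthetase complex, had 600 and 540 bp. Eef1a2, the form that replaces Eef1a1 in mature neurons and muscle, had no promoter peak of either factor. Its nearest Smad3 peak lay 1165 bp upstream, just outside the promoter window, and no JMJD3 peak names it.

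The release factors differed between the paralogs of eRF3. Etf1, which reads the stop codon, had 1630 bp of Smad3 and 960 bp of JMJD3, and Gspt1, its GTPase partner, had 1020 and 1080 bp. The Smad3 region of Gspt1 also holds a peak that names Mir1945, and the Smad3 promoter peaks that name Gspt1 sum to 352 bp. Gspt2, a related gene on chromosome X, had 460 bp of Smad3 (chrX:91881171-91881630) and no JMJD3 peak that names it, the nearest of any gene being 90832 bp away beside Maged1. All 4 Argonaute genes, which act in microRNA silencing, had Smad3, and 3 had JMJD3. Eif2c1 had 1611 bp of Smad3 and 950 bp of JMJD3, but a second JMJD3 promoter region of 750 bp (chr4:126144821-126145570) lay almost wholly within the Smad3 one, and the summed promoter peaks came to 1575 bp of Smad3 and 1691 bp of JMJD3. Eif2c3 had 590 and 1000 bp, and Eif2c4 had 1260 and 760 bp. Eif2c2, which encodes the Argonaute that cleaves target RNAs, had 540 bp of Smad3 (chr15:73015581-73016120), which ended 204 bp upstream of the TSS, and its nearest JMJD3 peak lay 2058 bp upstream.

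The Smad3 and JMJD3 regions of a gene mostly lay on the same stretch. At the 53 genes with both, the regions shared at least 1 base at 52 (98.1%), beside 95.1% of all genes with both. The shared part covered a median of 88.4% of the Smad3 region and 85.2% of the JMJD3 region, against 90.6% and 83.3% over all genes. The exception was Eif3j, whose 910 bp Smad3 region and 811 bp JMJD3 region lay next to each other, although a second Smad3 region of 820 bp (chr2:121853631-121854450) overlaps the JMJD3 one. Smad3 was wider at 22 of the 53 genes (41.5%) and JMJD3 at 31 (58.5%), beside 41.2% and 58.1% of all genes with both. With the summed width of all promoter peaks that name the gene in place of the widest region, Smad3 was wider at 23 and JMJD3 at 30, but the wider factor turned round at 13 genes (Eef1b2, Eef1d, Eef1e1, Eef2, Eif1ad, Eif2c1, Eif3a, Eif4b, Eif4enif1, Eif4g1, Eif4g3, Eif5 and Eif5a). At these genes the widths do not say which factor covered more. The difference in width, Smad3 minus JMJD3, had a median of -60 bp (range -799 to 980 bp), beside -59 bp over all genes. The widths of both factors moved together across genes, with a Spearman rho of 0.59 over the 53 genes and 0.60 over all 9059 genes with both. Genes are not replicates, and the lists share cells and build.

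**Figure D2:**
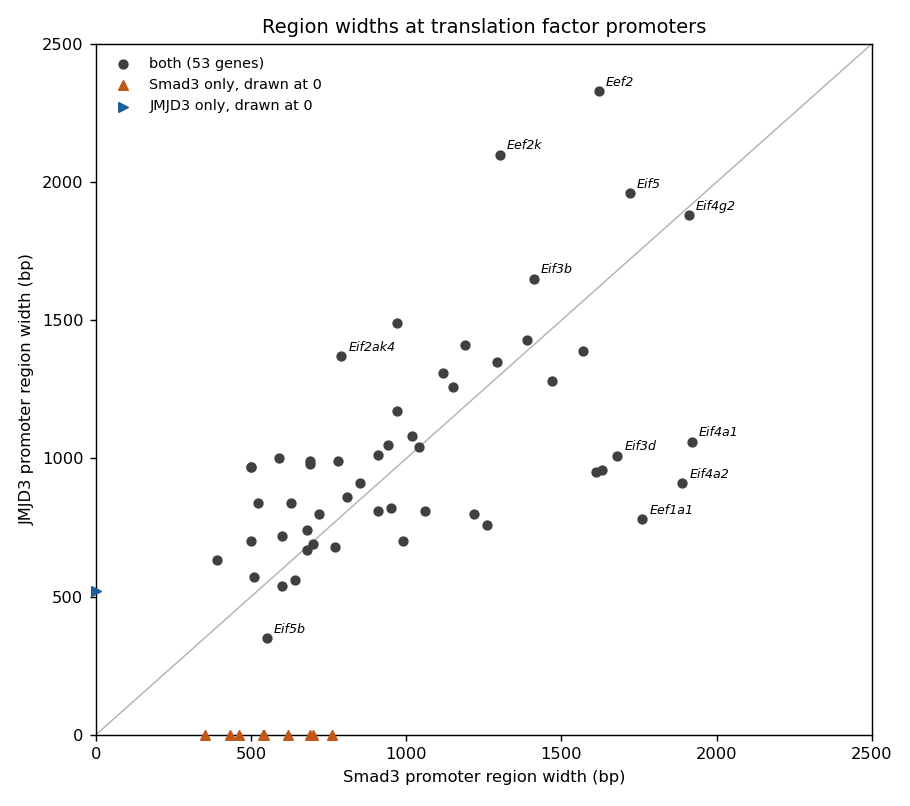
Width of the widest Smad3 promoter region (x axis, bp) against that of JMJD3 (y axis, bp) for each translation factor gene, with genes that 1 factor alone marked drawn at 0 on the other axis, and the line of equal widths. The 9 genes with Smad3 alone by name, Eif2a among them, sit at 350 to 760 bp. Eef2 and Eef2k are highest for JMJD3, and Eif4a1, Eif4a2 and Eef1a1 lie far to the Smad3 side by their widest regions.

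The genes that Smad3 marked alone had narrow Smad3 regions. The 9 were Eif4e3 (350 bp), Eif2s3x (431 bp), Gspt2 (460 bp), Eif2c2 (540 bp), Eif3l (541 bp), Eif3f (620 bp), Eif3g (690 bp), Eif2a (701 bp) and Eif2s2 (760 bp). Eif2a is among them by name only, since a JMJD3 peak credited to Serp1 is centred 34 bp from its TSS. The median of the 9 was 541 bp, against 951 bp (range 391 to 1920 bp) at the 53 genes with both. Over all genes in the lists the medians were 550 bp with Smad3 alone, against 820 bp with both, so narrower regions with Smad3 alone are the general pattern. The groups overlapped, since 22 of the 53 genes with both were at or under 830 bp, the class median, as were all 9 with Smad3 alone.

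At cytoplasmic ribosomal protein genes the Smad3 region had a median width of 851 bp with Smad3 alone and 870 bp with both. Whether translation factor and ribosomal protein genes differ in this was not tested.

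**Figure D3:**
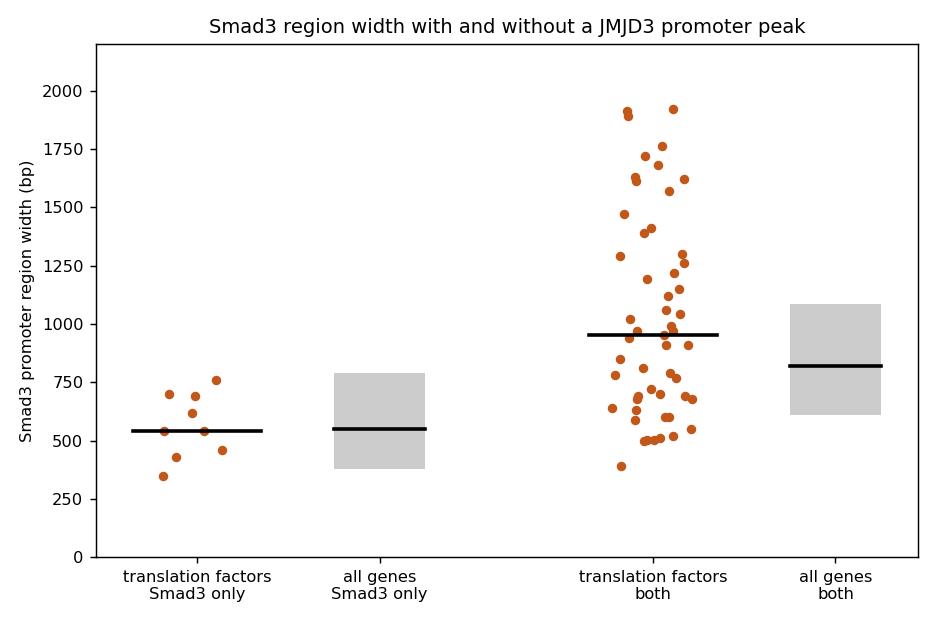
Width of the Smad3 promoter region (bp) at translation factor genes with Smad3 alone (9 genes) and with both factors (53 genes), 1 point per gene, beside all genes of the same class, shown by their median and quartiles. Points with Smad3 alone stop at 760 bp, while those with both reach 1920 bp and start at 391 bp.

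Compared with other housekeeping machinery, translation factor genes shared a high Smad3 share and had a JMJD3 share like that of the proteasome. Among 77 cytoplasmic ribosomal protein genes, 73 had Smad3 (94.8%, 87.2 to 98.6) and 55 had JMJD3 (71.4%, 60.0 to 81.2), and 19 had Smad3 alone. Among 37 proteasome subunit genes, 36 had Smad3 (97.3%, 85.8 to 99.9) and 30 had JMJD3 (81.1%, 64.8 to 92.0), and 6 had Smad3 alone. The intervals of the 3 sets overlap for both factors. Median widths were 830 bp of Smad3 and 965 bp of JMJD3 at translation factor genes, 860 and 840 bp at ribosomal protein genes, and 705.5 and 790 bp at proteasome genes.

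**Figure D4:**
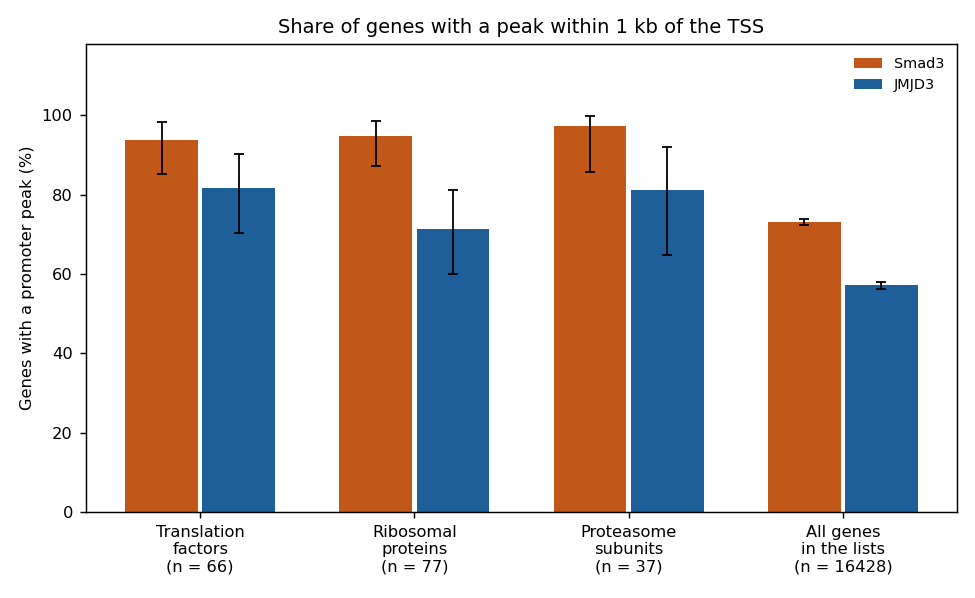
Percentage of genes with a Smad3 (orange) or JMJD3 (blue) peak within 1 kb of the TSS among translation factor, ribosomal protein and proteasome genes and all genes in the lists, with exact 95% intervals as bars. The 3 housekeeping sets stand above all genes, at 93.9, 94.8 and 97.3% for Smad3 and 81.8, 71.4 and 81.1% for JMJD3, against 73.1 and 57.1%.

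Pathway genes outside the symbol rule were read the same way. Over all genes in the lists, the shares to set beside these counts were 73.1% for Smad3, 57.1% for JMJD3 and 55.1% for both. Of 18 regulators of mTORC1 and the integrated stress response, 16 had Smad3 (88.9%), 15 had JMJD3 (83.3%) and 14 had both (77.8%). Mtor had 831 bp of Smad3 and 1740 bp of JMJD3, Rheb, its activator, 1341 and 1820 bp, and Atf4, the transcription factor made when eIF2 is phosphorylated, 1741 and 930 bp. Akt1s1, an inhibitor within mTORC1, had JMJD3 alone over 2440 bp. Rptor (631 bp) and Tsc2 (591 bp) had Smad3 alone, and Mknk2, a kinase of eIF4E, had neither. Of 15 other cytoplasmic translation genes, 14 are named in the lists, and 13 had Smad3 (92.9%), 12 had JMJD3 (85.7%) and 11 had both (78.6%). Ddx3x (850 bp) and Dph3 (1041 bp) had Smad3 alone and Dph5 (700 bp) had JMJD3 alone. All 9 mitochondrial translation factor genes had Smad3 and 7 had JMJD3 (77.8%), the exceptions being Gfm2 (1180 bp of Smad3) and Mtrf1 (580 bp). Dph3, Gfm2 and Ddx3x thus carried Smad3 alone over regions wider than any of the 9 translation factor genes with Smad3 alone.

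Promoter peaks made up a larger share of the peaks that name translation factor genes than of all peaks. Of the 324 Smad3 peaks that name one of them, 138 were promoter peaks (42.6%), beside 25.4% of all Smad3 peaks. Of the 214 JMJD3 peaks, 94 were (43.9%), beside 25.2% of all JMJD3 peaks. A peak farther than 1000 bp was named for 43 genes by Smad3 (65.2%, beside 72.9% of all genes) and for 30 by JMJD3 (45.5%, beside 61.0%). The 7 genes with the most such peaks of a factor held 112 of the 186 Smad3 peaks (60.2%) and 75 of the 120 JMJD3 peaks (62.5%).

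Eif4g3, a scaffold gene spanning 213 kb, had the most, with 28 Smad3 and 24 JMJD3 distal peaks, of which 7 and 8 lay inside the transcript. Eif3h had 18 Smad3 and 11 JMJD3 distal peaks, as far as 413511 bp from its TSS. Eef1a1 spans 3.27 kb and had 18 Smad3 distal peaks, all outside the gene, against 5 of JMJD3. Eif2c2 had 15 and 9, Eef2k 12 and 11, and Eif4e3 12 and 7. Eif2c2 and Eif4e3, which lacked JMJD3 at the promoter, thus had JMJD3 peaks elsewhere. Eif2b3 had more JMJD3 than Smad3, with 2 Smad3 and 8 JMJD3 distal peaks, all inside its 67.4 kb transcript.

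A promoter Smad3 peak of a translation factor gene shared a base with a JMJD3 peak in 114 of 138 cases (82.6%, 75.2 to 88.5), beside 70.9% of all promoter Smad3 peaks. A distal one did so in 106 of 186 (57.0%, 49.5 to 64.2), beside 56.6%. For JMJD3 peaks that shared a base with Smad3 the counts were 84 of 94 at promoters (89.4%, 81.3 to 94.8), beside 93.4%, and 91 of 120 elsewhere (75.8%, 67.2 to 83.2), beside 77.3%. Peaks of 1 gene are not independent.

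**Figure D5:**
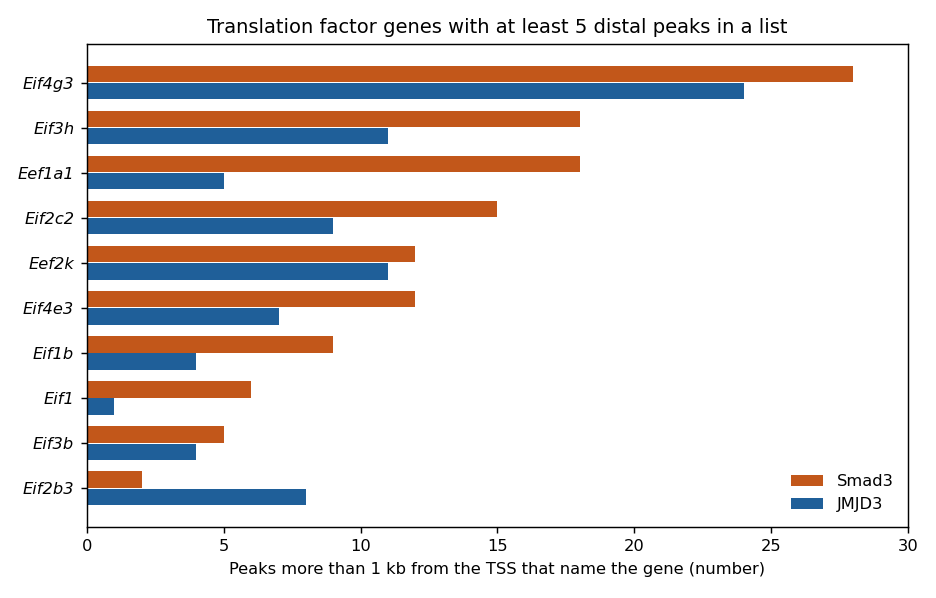
Number of Smad3 (orange) and JMJD3 (blue) peaks farther than 1 kb from the TSS that name each of the translation factor genes with at least 5 such peaks in a list. Eif4g3 leads with 28 and 24, and Eef1a1 shows the largest gap in favour of Smad3, 18 against 5.

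RefSeq promoters were found for 51 of the 66 genes, 42 of them with both factors and 6 with Smad3 alone. The 250 bases before the start were searched on both strands for 12 motifs by their letters. The Smad-binding letters CAGAC was in 24 of 51 (47.1%), beside 45.0% of the 7290 promoters of all genes with both factors and 45.8% of all 27025 promoters in the table. The Smad palindrome GTCTAGAC was in 0 of 51, beside 0.247% and 0.200%. The GC-rich element GGCGCC was in 16 (31.4%), beside 21.8% and 10.8%, and the GC box GGGCGG, which can share bases with it, in 38 (74.5%), beside 71.1% and 35.4%. Among the 42 class genes with both factors, CAGAC was in 50%, GGCGCC in 33.3% and the GC box in 78.6%. So the CAGAC share was near the background of all promoters, and the GC-rich letters were above it. The GC box share was closer to that of all genes with both factors.

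The E-box CACGTG, the site of Myc and related factors, was in 11 of 51 (21.6%), beside 10.3% of all genes with both and 6.86% of all promoters. The ETS core CCGGAAG was in 14 (27.5%), beside 15.6% and 7.83%. Among the 42 class genes with both factors, the E-box was in 21.4% and the ETS core in 28.6%. CCAAT was in 16 (31.4%), beside 42.1% and 37.5%, and the TATA letters TATAAA in 5 (9.80%), beside 6.72% and 14.3%. The AP-1 site TGACTCA was in 2 (3.92%), beside 3.50% and 5.16%, and the cyclic AMP element TGACGTCA in 0 of 51, beside 3.17% and 1.77%. The palindromic NRF1 core and the YY1 core AAGATGGC were in 1 each (1.96%), beside 2.00% and 2.29% of all genes with both. Median GC content was 62% in the class, against 61.3% of all genes with both and 52.4% of all promoters. Within the class it was 56.4% with Smad3 alone and 63.6% with both, and over all genes 57.6% with Smad3 alone and 61.3% with both.

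In the promoters printed above, Eef2 holds an E-box, the GC-rich element, the CAGAC letters and a TATA box. Eif4a1 has an E-box, a GC box, the YY1 core and 2 CCAAT boxes, and none of the Smad-binding letters. Eif2s2 holds the GC-rich element alone, Eif3l an AP-1 site, 2 GC boxes, a CCAAT box and the ETS core, and Eif2s3x a GC box. Eif2s3y has a GC box and TATA letters. A match is a description of these letters and not a site.

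Many mRNAs of the translation machinery begin with a C followed by pyrimidines, the terminal oligopyrimidine tract through which mTORC1 controls their translation. The class was therefore read for a C with at least 4 pyrimidines after it, starting within 5 bases of the RefSeq start. Such a tract was found at 13 of 51 genes (25.5%), beside 21.7% of all genes with both and 19.7% of all promoters. Among the 6 elongation genes with a RefSeq promoter it was at 1 (16.7%), Eef1a1. Only RefSeq starts were read, so a tract at another start would be missed. The rule also takes short tracts that begin near the start and not at it. These shares may thus understate or overstate how many mRNAs carry one. It was at 3 of 6 genes with Smad3 alone (50%) and 9 of 42 with both (21.4%), counts too small to set apart. Shown next are 30 bases around the start, 10 before and 20 after it, with the tract in capitals, for the 3 genes with Smad3 alone, the 1 with JMJD3 alone and Eef1a1.
Eif3f: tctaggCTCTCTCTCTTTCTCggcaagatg
Eif2s3x: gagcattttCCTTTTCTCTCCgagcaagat
Eif3l: gagttcttcttccgCTCTCTCCCacgggct
Eif2s3y: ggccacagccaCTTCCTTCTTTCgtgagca
Eef1a1: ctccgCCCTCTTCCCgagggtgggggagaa
The X and Y copies of the eIF2 gamma gene thus both begin near a tract of 12 bases, and both hold a GC box in the bases before it. The GC box was in 38 of the 51 genes (74.5%), so sharing it does not set this pair apart.

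The cell label was read against marker genes. Of 10 neural stem cell markers, 9 had promoter peaks of both factors, among them Nes (4910 bp of Smad3 and 1411 bp of JMJD3) and Sox2 (2351 and 970 bp), and Prom1 had neither. Of 5 neuron markers 3 had both, of 5 glia markers 1 had Smad3 (Gfap, 581 bp) and 0 had JMJD3, and of 3 endothelium markers 0 had either. Of 3 microglia and blood markers 1 had Smad3 (Cd68, 381 bp). Over all genes in the lists 73.1% had Smad3, 57.1% had JMJD3 and 55.1% had both. The neuron markers with both (60.0%) were thus near the share of all genes, and every marker set is small. A promoter peak is no measure of expression, so these counts do not give the make-up of the culture.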

How the data were processed

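Peaks of 1 Smad3 library (98086) and 1 JMJD3 library (63154) were used, as the authors listed them per library, and the input was not analysed here. CASAVA, Bowtie 0.12.7, MACS 1.4 and build mm9 are listed in the submitters' processing notes. The sources used here do not give thresholds, the use of the input or the treatment of reads that map to several places. Per the file headers, the deposited lists give each peak's position, its signed distance to the closest RefSeq TSS and that gene's name, with no score. Distances matched peak midpoints within 3.5 bp.

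Peaks of one list at most 10 bp apart were joined into regions (70562 Smad3 and 45018 JMJD3), a step checked on simulated peaks. Shares carry Clopper-Pearson intervals (scipy 1.17.1) for counting error only. Each peak names only its closest TSS, so a shared promoter may credit 1 gene. Names were matched by Entrez ID to RefSeq (GRCm38.p6) for 66 of 66 genes, and promoter sequences are RefSeq's. Genes given in full by rule were those with 1 factor or neither, the 10 widest regions per factor, those whose nearest peak lay 800 to 1200 bp from the TSS, and the widest and narrowest Smad3 region of each complex; others were named after their values were seen. Genes and lists were chosen with earlier results of these data known.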

Additional observations from a re-analysis of the deposited data

How the results depend on the processing

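Of the 66 genes, between 59 and 64 had Smad3, between 48 and 58 had JMJD3 and between 45 and 57 had both under windows of 500, 2500 and 5000 bp, with the wider 50% of peaks, with equal numbers of peaks and with naming by coordinates. At 500, 2500 and 5000 bp, 61, 64 and 64 genes had Smad3, beside 70.3, 76.8 and 80.6% of all genes. JMJD3 was at 54, 56 and 58, beside 54.8, 60.5 and 63.9%. With the wider 50% of peaks 59 had Smad3, beside 61.5%, and 48 had JMJD3, beside 45.6%. With equal numbers of peaks 60 had Smad3, beside 66.8%. All-gene shares were not worked out for both factors, for 1 factor alone or by coordinates. Counts of genes with 1 factor are small and changed more. Genes with Smad3 alone came to 14 with the wider 50% of peaks, against 9. Genes with JMJD3 alone came to 2 with midpoints within 500 bp, to 3 with the wider 50% of peaks and to 3 with equal numbers of peaks, against 1. Taking the single widest peak in place of the joined region gave median widths of 600.5 bp for Smad3, against 830 bp, and 745.5 bp for JMJD3, against 965 bp. Joining peaks up to 100 bp apart gave 910 and 970 bp. Among the 51 factors themselves, 48 had Smad3, 41 had JMJD3, 40 had both and 8 had Smad3 alone. A window of 2500 bp added Eef1a2 and Eif4ebp3 for Smad3 and Eif2c2 and Eif4ebp3 for JMJD3, and 5000 bp also added Eif3g and Eif4e3 for JMJD3. Eif4g3 and Gspt1 lost Smad3 with equal numbers of peaks, and these genes and Eif4e3 lost it with the wider 50% of peaks. With the wider 50% of peaks Eef1d, Eif1ax, Eif2ak2, Eif2s1, Eif3j and Eif5b lost JMJD3. The peak lists hold no read numbers, so the depth at which a peak would be missed is unknown. No paired analysis was possible because each antibody has 1 library and no result comes from a test.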
